A study of Mus musculus with 6 samples.

Results

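The peptide hormones of the islets of Langerhans were followed in whole mouse pancreas with and without forced expression of Prox1, a homeobox transcription factor. The 9 genes were Ins2, Iapp, Gcg, Sst, Ppy, Pyy, Npy, Ghrl and Gast, and every probe set whose only gene symbol in the array annotation was one of them was taken. This gave 12 of the 45101 probe sets of the array, 4 for Iapp and 1 for each other hormone, and the brightest probe set stood for Iapp. The study profiled NMRI mice at postnatal day 15 on 1 array per sample. The 3 Prox1-OE samples carried Jojo-Prox1 together with Ngn3-cre, and the 3 control samples carried Ngn3-cre alone, so that Cre was present in both groups. Ngn3 marks the progenitors of all endocrine cells of the pancreas, so Cre under it is not restricted to beta cells. The labels name no promoter for Jojo-Prox1. They do not state that each array stands for its own animal, so p-values here reflect no more than the spread among the arrays.

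Each islet hormone is made mainly by one endocrine cell type. Beta cells make insulin, of which Ins2 is one of the genes, and release islet amyloid polypeptide (Iapp) with it. Alpha cells make glucagon (Gcg), delta cells somatostatin (Sst), PP cells pancreatic polypeptide (Ppy) and epsilon cells ghrelin (Ghrl). Peptide YY (Pyy), neuropeptide Y (Npy) and pancreatic polypeptide form one family. Pyy is also made in developing endocrine cells and Npy in nerves and immature beta cells, while gastrin (Gast) appears in the fetal pancreas and later in the stomach. Insulin lowers blood glucose and glucagon raises it, somatostatin inhibits the release of both, and pancreatic polypeptide inhibits exocrine secretion.

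The stretches upstream of 5 of these genes are shown because their messages were high and low on the same control arrays (Sst, Gcg and Iapp) or because the genes lie side by side in the genome (Ppy and Pyy). The table of RefSeq promoters (build GRCm38.p6) held 8 of the 9 genes, all but Ins2. Each line gives the 250 bases before the annotated start, 5′ to 3′ on the strand of the gene. Capitals mark TATAAA (the TATA box), TGACGTCA (the cAMP response element) and TAAT (the core of homeodomain sites), each sought on both strands.
Sst (chr16:23890845-23891094, minus strand): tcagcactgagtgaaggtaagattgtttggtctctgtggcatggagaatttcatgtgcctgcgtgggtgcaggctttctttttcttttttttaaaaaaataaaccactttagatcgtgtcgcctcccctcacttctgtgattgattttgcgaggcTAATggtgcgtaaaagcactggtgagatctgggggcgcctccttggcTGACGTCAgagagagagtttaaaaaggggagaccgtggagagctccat
Gcg (chr2:62483654-62483903, minus strand): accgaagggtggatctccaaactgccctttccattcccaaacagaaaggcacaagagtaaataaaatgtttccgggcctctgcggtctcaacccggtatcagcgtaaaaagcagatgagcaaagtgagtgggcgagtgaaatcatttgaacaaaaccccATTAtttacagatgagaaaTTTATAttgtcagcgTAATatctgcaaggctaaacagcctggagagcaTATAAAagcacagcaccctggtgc
Iapp (chr6:142298175-142298424, plus strand): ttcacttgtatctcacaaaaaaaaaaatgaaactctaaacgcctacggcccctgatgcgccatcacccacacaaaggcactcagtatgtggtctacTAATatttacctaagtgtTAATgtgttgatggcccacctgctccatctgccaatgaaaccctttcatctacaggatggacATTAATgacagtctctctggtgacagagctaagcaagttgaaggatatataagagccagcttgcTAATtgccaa
Ppy (chr11:102101320-102101569, minus strand): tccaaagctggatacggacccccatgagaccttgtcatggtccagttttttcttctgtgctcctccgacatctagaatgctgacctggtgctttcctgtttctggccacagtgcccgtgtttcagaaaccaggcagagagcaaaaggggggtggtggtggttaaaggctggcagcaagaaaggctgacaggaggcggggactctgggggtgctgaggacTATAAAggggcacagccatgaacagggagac
Pyy (chr11:102107833-102108082, minus strand): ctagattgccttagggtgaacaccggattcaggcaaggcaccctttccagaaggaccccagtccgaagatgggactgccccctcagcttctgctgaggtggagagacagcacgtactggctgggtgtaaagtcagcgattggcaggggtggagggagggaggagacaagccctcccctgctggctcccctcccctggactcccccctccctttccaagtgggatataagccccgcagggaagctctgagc

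TGACGTCA stood once in the Sst window, with its first base at -48 from the start, and in none of the other 7 windows of the hormones. Of 32851 RefSeq windows of this length, some of them from one gene, 1.55% held it. TATAAA matched at -31 for Ppy, at -24 and -72 for Gcg and at -28 for Gast (first base on the strand of the gene). The Gcg match at -72 is on the opposite strand and reads TTTATA in the line above. On either strand, 12.4% of all windows held it. TAAT was found 5 times for Iapp, 2 of them overlapping on opposite strands, 2 times for Gcg and once for Sst and for Gast. It was not in the windows of Ppy, Pyy, Npy and Ghrl, and 54.9% of all windows held it. The E-box CANNTG, not marked, was in 66.2% of all windows, 5 times for Ghrl, 3 times for Iapp and for Gcg, once for Sst, Pyy and Gast, and absent from those of Ppy and Npy. Ppy and Pyy are next to each other among the protein-coding genes of chromosome 11.

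None of the 9 hormone genes passed the threshold, an adjusted p of 0.05 over all 18193 genes in limma, which 0.0275% of all genes did. At an unadjusted p under 0.05 there were 2 of the 9, Ppy and Ghrl, against 6.65% of all genes. The same 2 were the members whose groups did not overlap, Ppy with higher and Ghrl with lower values in Prox1-OE, against 5.05% and 7.02% of all genes in those directions (12.1% in either). Differences of 5 members were above 0 and of 4 below, with a median of 0.04 on the log2 scale against -0.01 over all genes. Of all 18193 genes, 8402 were above 0 and 9791 below. Of the 12 probe sets, tested with all 45037 probe sets that were not array controls, 0 passed in limma (1 at an unadjusted p under 0.05). These shares were 0.0111% and 6.15% of all probe sets. The median array value was 4.38 to 4.42, and the highest value on any array was 14.92.

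Prox1-OE replicate 1 stood apart from the other arrays on the first principal component of all genes (-28.73, against -4.37 to 16.74). The B cell list held 16 symbols, older names of the same genes among them, and 12 genes were measured. These had a mean 1.31 above control on Prox1-OE replicate 1, and 0.12 and 0.38 on replicates 2 and 3. For the 14 measured macrophage genes these values were 1.20, 0.35 and 0.53. Of the 12 B cell genes 10 had a mean under 5, and the differences of 3 were below 0, so their rise was not uniform. The part of both lists in the results of the hormones was not tested beyond the fits given beside them. The mean over 13 acinar genes lay between -0.10 and 0.02 of the control mean on every array, and Cela3b, an elastase of acinar cells, read 14.71 to 14.92, near the top of the arrays. Of 18 measured genes of gut epithelium, 15 had a mean under 5. No gene of the B cell, macrophage, acinar, duct, gut, or vessel and stroma lists passed, and their medians ran from -0.08 (duct) to 0.62 (macrophage). The brightest probe set of Prox1 had a mean of 5.14 ± 0.41 in control (SD, n = 3) and 5.20 ± 0.19 in Prox1-OE. Both dimmer probe sets of Prox1 were also close between the groups, with differences of 0.02 and -0.03. Probe sets near the 3′ end may lie outside a transgene's transcript, so this does not check the labels.

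**Figure D1:**
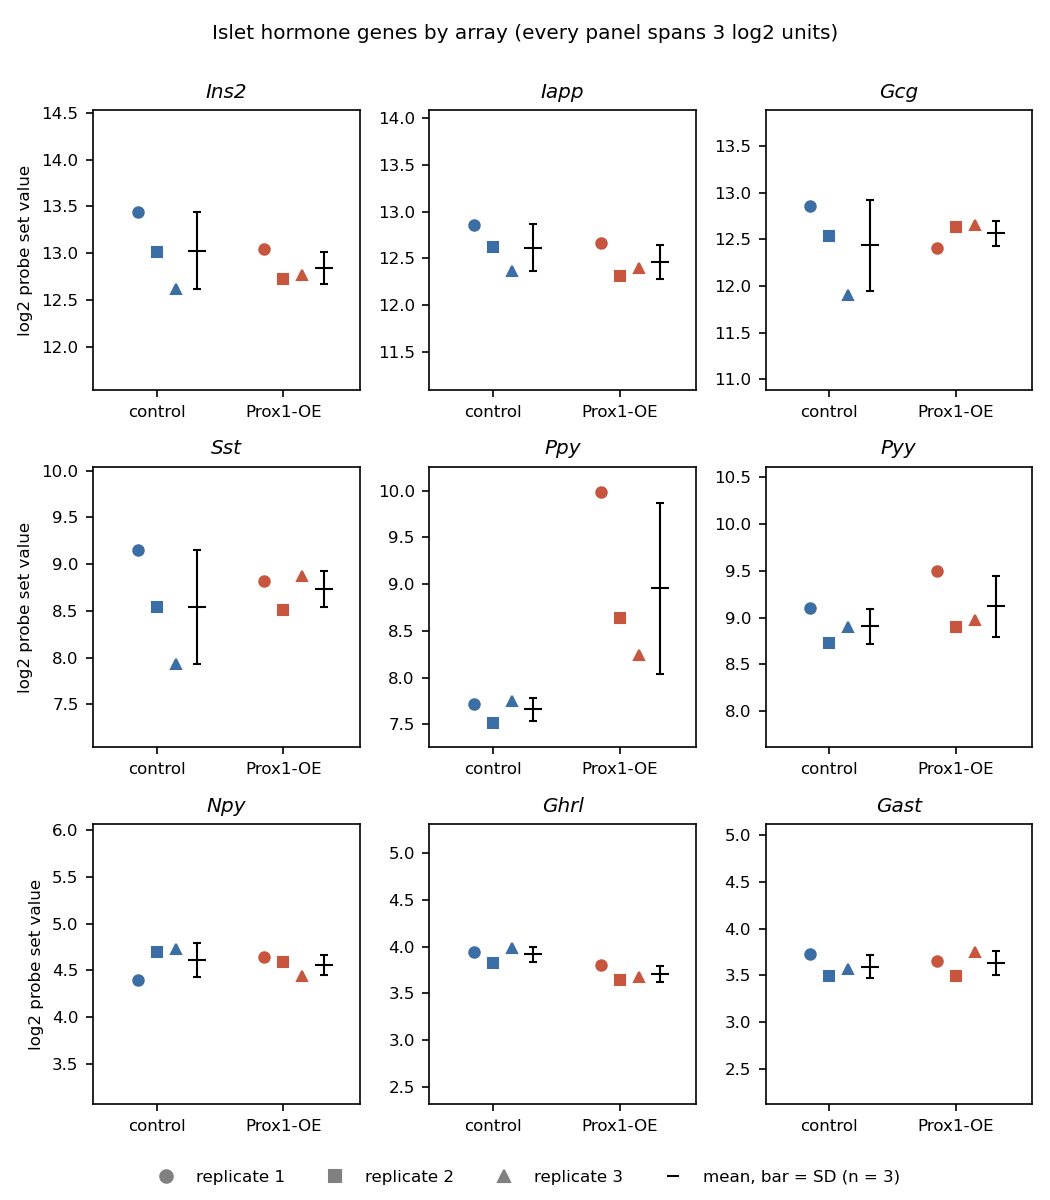
Log2 probe set values of the 9 hormone genes on each array, control in blue and Prox1-OE in red, with the mean and SD of 3 arrays beside them. Every panel spans the same log2 range around its own centre, and only Ppy has all Prox1-OE arrays (8.24 to 9.99) clearly above the controls (7.52 to 7.75).

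Ppy, which encodes pancreatic polypeptide, showed the highest difference of the hormones, in an uneven way. It read 9.99, 8.64 and 8.24 on Prox1-OE replicates 1, 2 and 3, and 7.71, 7.52 and 7.75 on the controls. Every Prox1-OE array lay above every control, and replicate 1 lay 1.35 or more above the others. The log2 difference was 1.29 ± 0.38 (SE), a fold of 2.45 with a 95% interval from 1.34 to 4.50. It did not pass (limma adjusted p = 0.690). It ranked 230 of all genes by p.

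The array with the highest Ppy was also the highest for the B cell, macrophage, and vessel and stroma lists. Without Prox1-OE replicate 1 the difference was 0.78 ± 0.14, a fold of 1.71 (limma adjusted p = 0.917). The unadjusted limma p was 0.00088 there and 0.0092 with all 6 arrays, and 0 of all 18193 genes passed without that array. When the B cell mean entered the fit as a covariate, the difference was 0.50 ± 0.25 (limma adjusted p = 0.999). That mean was itself higher on each Prox1-OE array than on each control. From the control mean it stood at 1.31, 0.12 and 0.38 on Prox1-OE and 0.04, 0.02 and -0.06 on the controls. The fit therefore cannot separate it from the genotype, and 0 of all 18193 genes passed in it. Among the other Prox1-OE arrays Ppy was higher on replicate 2 and the B cell mean higher on replicate 3. The SD over the Prox1-OE arrays was 0.92 and over the controls 0.12, and the SD over all 6 arrays stood at percentile 99.7 of all genes. In bulk tissue a change in the number of PP cells and a change in Ppy message per cell cannot be told apart.

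Pyy, the neighbour of Ppy and a member of its family, read 9.50, 8.90 and 8.98 in Prox1-OE and 9.10, 8.73 and 8.90 in control. The groups overlapped, and Prox1-OE replicate 1 was again the highest. The difference was 0.22 ± 0.17 (limma adjusted p = 0.831), with a 95% interval from -0.18 to 0.61. It was 0.029 without Prox1-OE replicate 1 and 0.13 without control replicate 2, and turned to -0.10 with the B cell covariate. Npy, of the same family, was near the array median, at 4.45 to 4.65 in Prox1-OE and 4.40 to 4.73 in control, and differed by -0.05 ± 0.12 (limma adjusted p = 0.958). Its mean stood at percentile 53.1 of all probe sets.

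The insulin gene Ins2 was among the brightest genes of the tissue, with 117 probe sets above it. It read 13.04, 12.72 and 12.77 in Prox1-OE and 13.44, 13.02 and 12.62 in control. The Prox1-OE arrays lay inside the range of the controls. The difference was -0.18 ± 0.20 (limma adjusted p = 0.878), and its 95% interval ran from -0.64 to 0.27. Without control replicate 1 it turned to 0.03. The probe set of Ins2 is of the kind that can bind near-identical transcripts.

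Iapp was measured by 4 probe sets, all of them lower in Prox1-OE on average and all with overlapping groups. The brightest read 12.67, 12.31 and 12.40 in Prox1-OE and 12.86, 12.62 and 12.36 in control, a difference of -0.15 ± 0.15 (limma adjusted p = 0.864). The B cell covariate made it -0.35, and it was -0.28 when control replicate 3 was left out and -0.030 when control replicate 1 was. A second bright probe set (12.34 and 12.49 on average in Prox1-OE and control) differed by -0.14 ± 0.18. Another (10.91 and 11.13) differed by -0.21 ± 0.24, and the dimmest (7.51 and 7.64) by -0.13 ± 0.13. All 4 gave the same order of the controls, replicate 1 highest and replicate 3 lowest. Their range over the controls was 0.50 and 0.65 for the bright pair, 1.05 for the next and 0.43 for the dimmest, so the probe sets of one gene spread the arrays to different extents.

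Gcg, the glucagon gene of alpha cells, read 12.41, 12.63 and 12.65 in Prox1-OE and 12.86, 12.53 and 11.91 in control. Control replicate 3 was the low one, and the Prox1-OE arrays lay within the controls. The difference was 0.13 ± 0.22 (limma adjusted p = 0.931), with a 95% interval from -0.37 to 0.63. Sst, the somatostatin gene of delta cells, read 8.82, 8.51 and 8.87 in Prox1-OE and 9.15, 8.54 and 7.93 in control. It differed by 0.19 ± 0.27 (limma adjusted p = 0.913), with an interval from -0.43 to 0.81. Without control replicate 3 the differences turned to -0.13 for Gcg and -0.11 for Sst.

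Ghrl and Gast were dim. Ghrl, the ghrelin gene, read 3.80, 3.64 and 3.67 in Prox1-OE and 3.94, 3.83 and 3.98 in control, at percentile 36.9 of all probe sets. Each Prox1-OE array was below each control. The difference was -0.21 ± 0.09 (limma adjusted p = 0.748), and was between -0.26 and -0.18 when any one array was left out. Gast, the gastrin gene, read 3.49 to 3.75 in both groups and differed by 0.04 ± 0.11 (limma adjusted p = 0.965), at percentile 30.9. Values this far below the array median may be background of the probes, so no direction is read from them.

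**Figure D2:**
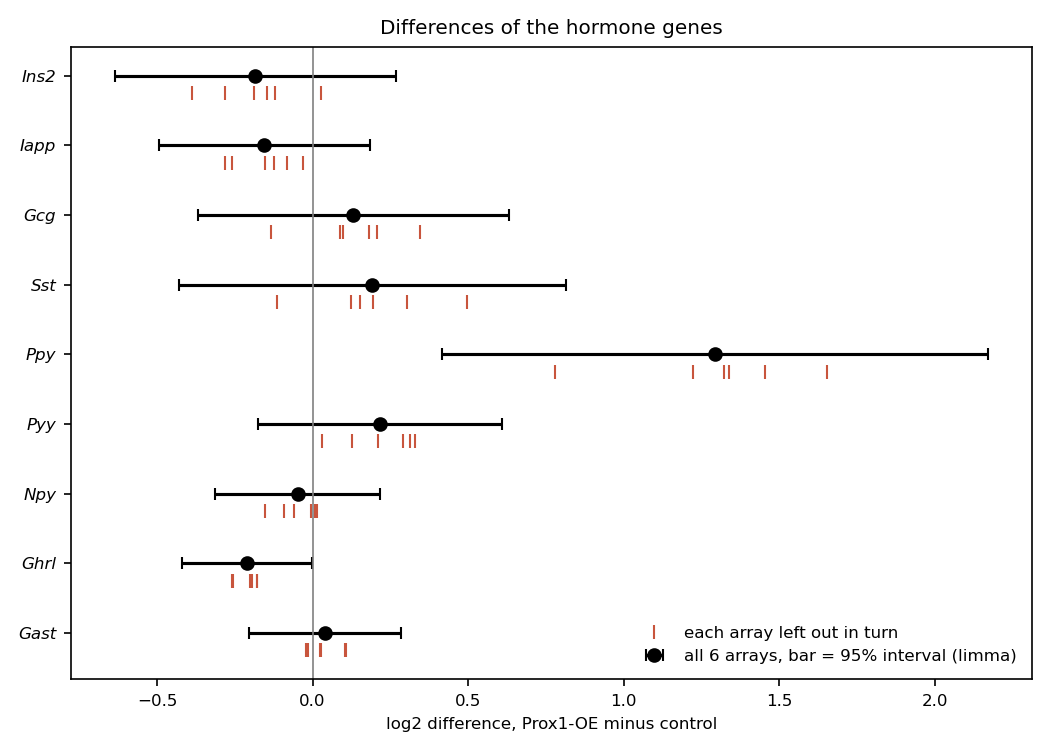
Log2 difference of each hormone gene between Prox1-OE and control (point) with limma's 95% interval (bar), and the differences obtained when each of the 6 arrays was left out (ticks). The interval of Ppy lies above 0 (0.42 to 2.17) and its ticks start at 0.78, without Prox1-OE replicate 1, while the ticks of Ins2, Gcg, Sst, Npy and Gast fall on both sides of 0.

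The spread over the controls exceeded most of the differences between the genotypes. Ins2, Iapp, Gcg and Sst were all highest on control replicate 1 and lowest on control replicate 3, with ranges of 0.83, 0.50, 0.95 and 1.22. That order with a range of at least 0.5 was seen in 2.37% of all genes, and this pattern was picked after the values were seen. Ppy (range 0.23) and Pyy (0.37) did not have it. The granule protein list had means of 0.17, -0.03 and -0.13 around the control mean on control replicates 1, 2 and 3, and the beta cell list 0.16, -0.02 and -0.14. The mean over vessel and stroma genes ran alike (0.20, -0.02 and -0.18), and that over acinar genes lay between -0.02 and 0.02. Their part in the spread of the hormones was not tested.

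**Figure D3:**
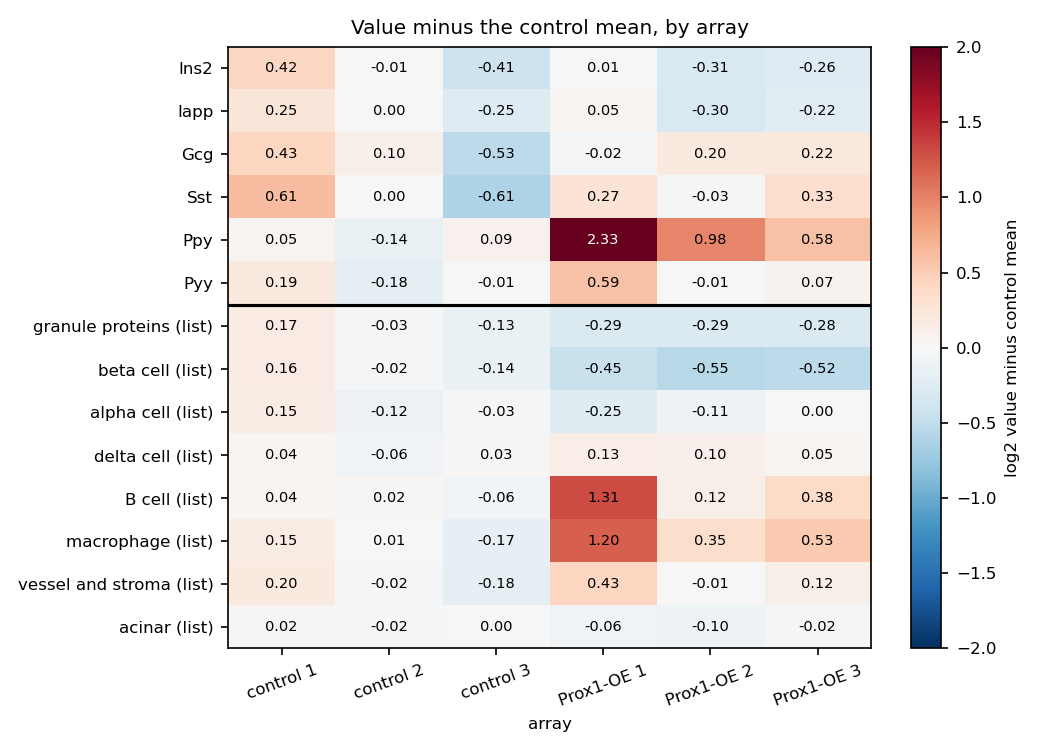
Value on each array minus the mean of the 3 controls (log2) for the 6 brighter hormones above the line, and the mean over marker lists below it. Ins2, Iapp, Gcg and Sst are above the mean on control 1 (0.25 to 0.61) and below it on control 3 (-0.25 to -0.61). Ppy, the B cell list and the macrophage list are highest on Prox1-OE 1 (2.33, 1.31 and 1.20), and the beta cell list is below control on all Prox1-OE arrays (-0.45 to -0.55).

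Ratios within an array remove what raises or lowers all hormones of that array by the same log2 amount. Where probe sets spread the arrays to different extents, as those of Iapp did, part of it remains. Each ratio is a difference of log2 values of 2 probe sets, whose binding strengths differ, so it can be compared between arrays but does not give relative amounts. Among the 36 pairs of hormones the groups did not overlap in 10, of which 6 were among the 8 pairs with Ppy and 4 among the 28 without it. With 3 arrays against 3, the smallest p of the exact two-sided permutation test is 0.1, and after adjustment over the 36 pairs the smallest was 0.36, so that 0 pairs passed. The background for such counts depends on the hormone: set against Sst, 0.599% of all genes had groups without overlap, against Gcg 1.37%, against Ins2 3.55%, against Npy 4.14%, against Iapp 6.9%, against Gast 7.29%, against Pyy 7.4%, against Ghrl 32.4% and against Ppy 95.6%.

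The beta cell hormones kept close to each other. Ins2 minus Iapp was 0.38, 0.41 and 0.37 under Prox1-OE and 0.58, 0.40 and 0.26 on the controls. The Prox1-OE arrays lay within the controls and differed from them by -0.03 on average (exact permutation p = 0.8). Over all 6 arrays the SD of this ratio was 0.10, against 0.30 for Ins2 and 0.21 for Iapp. Gcg minus Sst, alpha against delta cell hormone, was 3.60, 4.12 and 3.78 in Prox1-OE and 3.71, 3.99 and 3.98 in control, also with overlap (difference -0.06, exact permutation p = 0.9). Its SD was 0.20, against 0.33 for Gcg and 0.42 for Sst.

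Besides the pairs with Ppy, the groups did not overlap for Ins2 against Sst, Iapp against Pyy, Pyy against Ghrl and Ghrl against Gast, the last ones resting on dim probe sets. Insulin against somatostatin was lower in each Prox1-OE array than in each control. Ins2 minus Sst was 4.23, 4.21 and 3.90 in Prox1-OE and 4.29, 4.47 and 4.69 in control. The mean was 4.49 ± 0.20 (SD, n = 3) in control and 4.11 ± 0.18 in Prox1-OE, a difference of -0.38 (exact permutation p = 0.1, the smallest possible; 0.36 after adjustment). Prox1-OE replicate 1 and control replicate 1 were only 0.07 apart. Over the controls the ratio rose from replicate 1 to replicate 3, the reverse of the order of both genes, with a range of 0.40. The order shared by both genes was thus not fully removed. Of all genes, 3.45% stood higher against Ins2 in Prox1-OE with no overlap. The groups overlapped for Ins2 against Sst after quantile normalization again.

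Ins2 minus Gcg was 0.63 on Prox1-OE replicate 1, within the controls (0.59, 0.48 and 0.71). It was 0.09 and 0.12 on replicates 2 and 3, below them. The difference was -0.31 (exact permutation p = 0.3, and 0.6 after adjustment). Iapp minus Sst was 3.85, 3.80 and 3.53 in Prox1-OE and 3.71, 4.07 and 4.43 in control, which overlapped. Its difference was -0.35 (exact permutation p = 0.3). Iapp minus Pyy had no overlap, at 3.17, 3.41 and 3.42 against 3.76, 3.89 and 3.46. The gap of 0.04 between the groups closed both with the mean of the probe sets of a gene and after quantile normalization again.

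**Figure D4:**
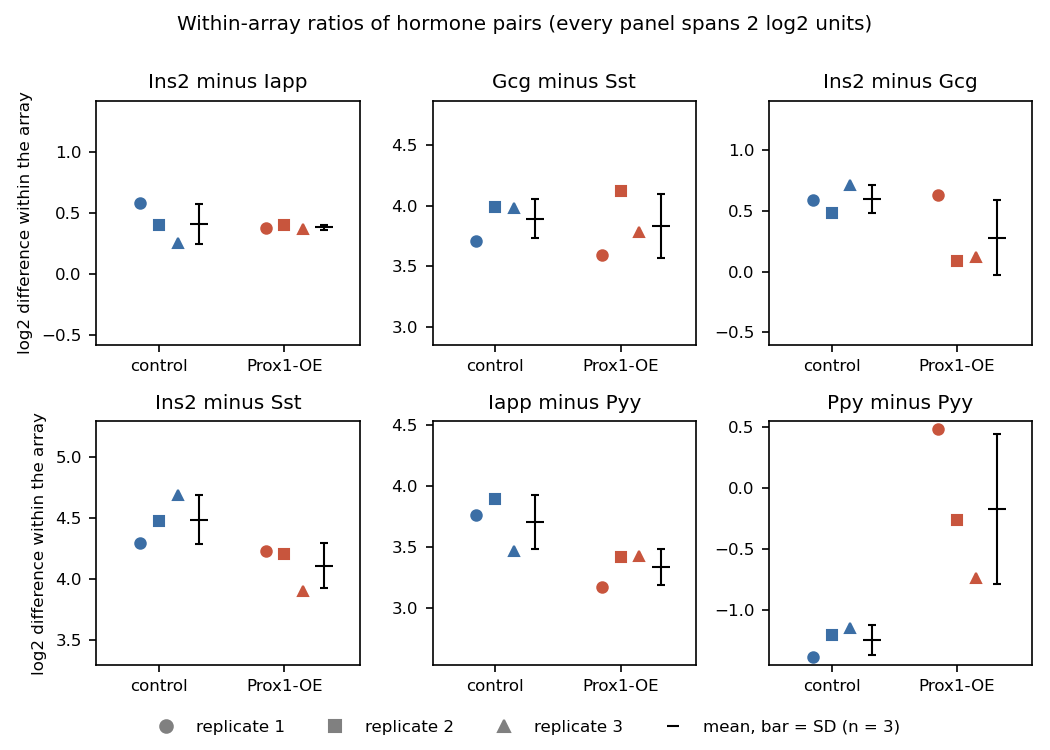
Log2 differences between 2 hormones within each array for 6 pairs, control in blue and Prox1-OE in red, with the mean and SD of 3 arrays. Ins2 minus Iapp and Gcg minus Sst overlap between the groups. Ins2 minus Sst is lower in Prox1-OE (3.90 to 4.23 against 4.29 to 4.69), and Ppy minus Pyy is higher (-0.74 to 0.49 against -1.39 to -1.15).

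Pancreatic polypeptide stood higher against its neighbour in each Prox1-OE array. Ppy minus Pyy was -1.39, -1.21 and -1.15 in the controls and 0.49, -0.26 and -0.74 in Prox1-OE. The difference was 1.08 on average (exact permutation p = 0.1; 0.36 after adjustment), and 0.75 without Prox1-OE replicate 1. Ins2 minus Ppy was 3.05, 4.08 and 4.53 in Prox1-OE and 5.73, 5.50 and 4.87 in control, also without overlap. Set against Ppy, 95.6% of all genes had groups without overlap. These pairs therefore show little beyond the values of Ppy itself, and nothing particular to Pyy or Ins2. Ppy against Gcg and against Sst did overlap: Gcg minus Ppy was 2.42, 3.996 and 4.41 against 5.15, 5.02 and 4.16, where control replicate 3 was below Prox1-OE replicate 3. The mean differences were -1.16 for Gcg minus Ppy and -1.10 for Sst minus Ppy (exact permutation p = 0.2 for each), and -0.57 and -0.63 without Prox1-OE replicate 1. Without Prox1-OE replicate 3 or control replicate 3 neither pair overlapped.

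Genes whose values ran most like those of a hormone were named by Pearson's r over the 6 arrays among the 1741 genes with a mean of at least 6 and a range of at least 0.5. All points share the same arrays, so r is a description. For Ins2 they were Scg2 (0.988) and Scg3 (0.974), both granins of secretory granules, and C1qa (0.984), a chain of complement C1q. For Iapp they were Ins2 (0.973), Myh11 (0.966), a smooth muscle myosin, and Scg2 (0.957). For Sst they were Adgrf5 (0.997), a receptor, Slc6a6 (0.986), the taurine transporter, and Cpe (0.983), the carboxypeptidase that trims prohormones.

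Around Gcg stood Agrn (0.977), a matrix proteoglycan, 2900026A02Rik (0.976) and Cyyr1 (0.970). The genes most like Ppy were Celf2 (0.985), an RNA-binding protein, Cnn3 (0.984), a calponin, and Hsd11b1 (0.984), which regenerates active glucocorticoid. Their differences were 0.47, 0.33 and 0.41, with limma adjusted p from 0.690 to 0.753. For Pyy they were Igfbp4 (0.990), a carrier of insulin-like growth factors, Ctso (0.985), a cathepsin, and Gnai2 (0.984), a G protein subunit.

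The genes of prohormone processing are enzymes that cut, trim, modify or degrade the peptides, with their inhibitors, chaperones and folding proteins. They gave no calls. Of 12 measured genes 0 passed, 7 were below 0 and the median was -0.05, against -0.01 for all genes. As background for this and the later counts, 9791 of all 18193 genes were below 0. Pcsk1n, an inhibitor of a prohormone convertase, differed by -0.27 ± 0.11, and Pcsk1, the convertase, by -0.25 ± 0.13 (limma adjusted p = 0.730 and 0.767), both dim at 4.80 and 4.46 in control. Mboat4, which acylates ghrelin, read 3.36 in control and differed by -0.17 ± 0.14. Of 16 granule genes 14 were below 0 (median -0.15) and 1 passed. This was Chga, chromogranin A, which fell by 1.51 (SE 0.14, limma adjusted p = 0.0217), from 8.96 ± 0.21 to 7.45 ± 0.19. Its difference stayed between -1.61 and -1.40 without any one array, but the call was lost without Prox1-OE replicate 1 or 3 or control replicate 1 or 2 (limma adjusted p = 0.0760 to 0.180). Slc30a8, the zinc transporter of insulin granules, differed by -1.05 ± 0.19 and Rab27a, of granule docking, by -0.32 ± 0.09, with limma adjusted p of 0.618 and 0.690.

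Chga lay 1.10 or more below the lowest control on every Prox1-OE array, while Ins2, Iapp, Gcg and Sst, whose peptides are stored in such granules, overlapped between the groups. Among the 13 beta cell markers, none of them a member, 12 were below 0 with a median of -0.28, and 0 passed. Slc30a8, Ucn3, Glp1r and Isl1 of this list stand on another list too, so the counts of the lists are not separate. Slc2a2, the glucose transporter of beta cells, differed by -1.23 ± 0.18 and Nkx6-1, a beta cell transcription factor, by -0.67 ± 0.11 (limma adjusted p = 0.292 and 0.482). Of 9 alpha cell markers 8 were below 0 (median -0.09), and 5 had a mean under 5. Pou3f4, a transcription factor, stood at -0.41 ± 0.13, Ttr, transthyretin, at -0.23 ± 0.17 and Irx2 at -0.16 ± 0.18.

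Of 10 delta cell markers 6 were below 0 (median -0.02) and 1 passed. Rbp4, the retinol carrier, rose by 1.43 ± 0.14 (limma adjusted p = 0.0247), from 7.05 to 8.48, while Sst itself overlapped between the groups. The call of Rbp4 was lost without any one array (limma adjusted p = 0.0700 to 0.193, differences of 1.31 to 1.53), and the calls of both Rbp4 and Chga were lost with the B cell covariate (limma adjusted p = 0.303 for each) and with the acinar covariate (0.899 for each). The differences stayed near those without a covariate, at 1.24 and 1.45 for Rbp4 and -1.45 and -1.66 for Chga. With either covariate 0 of all 18193 genes passed. Both list means lay mostly apart between the groups, so neither fit separates them well from the genotype. Spock3 (-0.23 ± 0.12) and Bche (-0.28 ± 0.16), a cholinesterase, did not pass, and 7 of the 10 had a mean under 5. Of 5 genes described in PP or epsilon cells 0 passed, with a median of 0.06. Isl1, an endocrine transcription factor, differed by 0.17 ± 0.09, Vtn, vitronectin, by 0.22 ± 0.15 and Fxyd2, a subunit of the sodium pump, by -0.09 ± 0.08.

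Of 23 genes for receptors of these and related peptides and for their accessory and adaptor proteins (Ramp and Irs genes) 0 passed, 15 were below 0 (median -0.03), and 12 had a mean under 5. Sstr2, a somatostatin receptor, read 6.37 ± 0.10 in Prox1-OE and 6.66 ± 0.09 in control (limma adjusted p = 0.690). Glp1r, the incretin receptor of beta cells, differed by -0.28 ± 0.11 and Npy4r, the receptor of pancreatic polypeptide, by -0.25 ± 0.12. Of 17 other gut and nerve peptide genes and amine enzymes 0 passed, 10 were below 0 (median -0.03), and 10 had a mean under 5. Sct, secretin, differed by -0.36 ± 0.11, Ucn3, urocortin 3 of mature beta cells, by -0.45 ± 0.17 and Insl5 by -0.32 ± 0.10. Their limma adjusted p ran from 0.690 to 0.710, and Ucn3 and Insl5 were dim, at 3.98 and 3.50 in control. Nerve and glia genes, which bear on Npy, had 0 calls of 15 and a median of -0.04, and 12 had a mean under 5. Ret, a receptor of neural cells, differed by -0.57 ± 0.24, Gfap, of glia, by -0.17 ± 0.08 and Dbh, which makes noradrenaline, by -0.20 ± 0.10.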

How the data were processed

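Whole pancreas RNA of 6 samples was hybridised to Affymetrix 3′ expression arrays, with 100 ng of total RNA labelled per the labels' protocols. The authors deposited log2 values, 1 per probe set and array. The submitters' processing notes name RMA, which corrects background and quantile-normalizes the arrays, and Partek 6.5, with no settings. A change in total RNA per cell therefore cannot be seen, and differences of dim probe sets are compressed.

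Of 45101 probe sets, 64 were array controls and were left out. A single gene symbol was given to 34945 of the others, measuring 18193 genes, each represented by its brightest probe set on average. The 2 groups of 3 were set against each other in limma 3.58.1 (lmFit, eBayes; R 4.3.3), two-sided, with no covariate or filter and Benjamini-Hochberg adjustment over all genes. Ratios were compared by exact permutation. ± after a difference is its SE. Genes were named by rule: all members, the 3 genes most like each hormone with a mean of at least 6, and up to 3 genes with the smallest p of each of 15 lists, most of which are printed. Members and lists were chosen with earlier results of these data known. Other settings are under the dependence on processing. With 3 arrays a group, the number of arrays limits the precision.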

Additional observations from a re-analysis of the deposited data

How the results depend on the processing

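No hormone gene or probe set passed in any setting run, and the count stayed 0 at an adjusted p of 0.1, with any one array left out, with every probe set tested on its own and with array weights, trend and robust variances, either covariate (B cell or acinar list), other normalizations or another choice of probe set. With genes under a mean of 5 left out, Npy, Ghrl and Gast were not tested. Of 141 repeats for single hormones 132 kept their direction. The 9 others were Pyy (-0.10) and Gast (-0.0082) when the B cell list was a covariate and 7 with 1 array left out. Without any one array Ins2 ran from -0.39 to 0.025 (without control replicates 3 and 1), Gcg from -0.13 to 0.34 and Sst from -0.11 to 0.50 (both without control replicates 3 and 1), Npy from -0.15 to 0.015 and Gast from -0.020 to 0.11. The cause was not tested. Ppy kept its direction in all, between 0.50 (B cell covariate) and 1.65 (Prox1-OE replicate 3 left out), with limma adjusted p between 0.516 and 1.0. With the acinar covariate Ppy was 1.06 ± 0.62, Sst 0.57, Pyy 0.36, Gast 0.26, Gcg 0.24, Ins2 -0.045, Iapp -0.049, Ghrl -0.16 and Npy -0.23. From the control mean, the acinar mean stood at -0.06, -0.10 and -0.02 on Prox1-OE and 0.02, -0.02 and 0.001 on the controls. It thus went largely with the genotype, and that fit separates them poorly. Pairs of hormones without overlap numbered 10, 9 with the mean of probe sets, 8 after quantile normalization again, and 10 to 16 without any one array, where fewer arrays overlap less easily.

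The labels number the replicates alike in both groups. Deviations from the group means correlated by 0.04, 0.14 and 0.11 between arrays of the same number, so the numbers were not taken to pair the samples, although each of the 3 Prox1-OE arrays correlated best with the control of its own number. With the replicate number as a block, 0 hormones passed (Ppy 1.29 ± 0.31, limma adjusted p = 0.516). In all, 2 genes passed in place of 5 (Chga had limma adjusted p = 0.0519). The block lowered the SE of Ins2 from 0.20 to 0.13, of Iapp from 0.15 to 0.10 and of Pyy from 0.17 to 0.10. It raised that of Npy from 0.115 to 0.125 and of Ghrl from 0.091 to 0.093.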
